A study of Homo sapiens with 4 samples.

Results

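The genes described are the transcriptional coactivator YAP1 and its paralog WWTR1 (TAZ), 3 of their TEAD partners (TEAD1, TEAD3 and TEAD4) and 5 genes whose transcription they are known to drive (CYR61, CTGF, ANKRD1, AMOTL2 and LATS2). The 10 were chosen by symbol and all 10 were found among the 56303 features of a table of raw counts. All 10 also passed the filter of at least 10 counts in at least 2 libraries, which left 19210 features for comparison. The RNA came from Huh7, a human cell line established from a hepatocellular carcinoma, carrying either a short hairpin RNA against RBM39 (shRBM39), delivered on a plasmid, or a control hairpin (shControl). From each of the 2 cultures 1 library was made of RNA immunoprecipitated with an antibody against the splicing factor RBM39 (IP) and 1 of input RNA, so there were 4 libraries with 1 per group and no IP with a control antibody. The labels do not say whether either culture was a clone or a pool.

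YAP1 and WWTR1 do not bind DNA themselves. They enter the nucleus and act through TEAD transcription factors, which recognise short GGAATG-type elements in promoters and enhancers. The Hippo kinases LATS1 and LATS2 phosphorylate both coactivators and hold them in the cytoplasm, and in liver this pathway limits organ size and is often relaxed in carcinoma. LATS2 and the angiomotin-like scaffold AMOTL2 restrain YAP1 and are also induced by it, which makes them feedback targets. CYR61 and CTGF (current symbols CCN1 and CCN2) encode secreted matricellular proteins, and ANKRD1 encodes an ankyrin repeat protein known from stressed muscle and from YAP1-active epithelium.

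To show where TEAD could contact the target genes, the 250 bases before the annotated start were read from RefSeq (GRCh38.p14), which gave 9 windows for 7 of the 10 genes. Windows of 3 genes are printed below 5′ to 3′ on the strand of the gene, with GGAATG or its reverse complement CATTCC in capitals. They are ANKRD1 (chr10:90921088-90921337, minus strand), whose input RNA differed most of the 10 between the cultures, AMOTL2 at the second of its 2 annotated starts (chr3:134374448-134374697, minus strand), which was also higher, and CTGF (chr6:131951373-131951622, minus strand), which changed little.
ANKRD1: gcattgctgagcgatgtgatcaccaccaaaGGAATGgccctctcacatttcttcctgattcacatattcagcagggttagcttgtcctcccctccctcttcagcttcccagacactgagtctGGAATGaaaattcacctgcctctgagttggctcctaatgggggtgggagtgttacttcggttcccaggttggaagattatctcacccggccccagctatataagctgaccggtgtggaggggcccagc
AMOTL2: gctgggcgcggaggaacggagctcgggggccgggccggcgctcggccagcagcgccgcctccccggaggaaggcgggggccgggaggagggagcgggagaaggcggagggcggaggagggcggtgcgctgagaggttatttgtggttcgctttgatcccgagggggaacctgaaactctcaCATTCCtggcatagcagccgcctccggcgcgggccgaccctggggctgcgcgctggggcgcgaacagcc
CTGF: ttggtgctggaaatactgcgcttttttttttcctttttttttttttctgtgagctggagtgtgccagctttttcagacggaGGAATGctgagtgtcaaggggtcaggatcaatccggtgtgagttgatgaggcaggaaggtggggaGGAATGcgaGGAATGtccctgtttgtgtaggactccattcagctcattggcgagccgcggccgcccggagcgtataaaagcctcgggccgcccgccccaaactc
The CTGF window held 3 copies, beginning 169, 104 and 95 bases before the start. ANKRD1 had 2 copies, at 220 and 128 bases, and AMOTL2 had 1 copy in the reverse orientation at 69 bases. Of the 9 windows, 4 held the element on either strand, the fourth being that of YAP1 at 162 bases, and the first AMOTL2 start, LATS2, TEAD3 and both WWTR1 windows held 0 copies. CYR61, TEAD1 and TEAD4 were not searched. Over all 35116 RefSeq windows of this length, 11.9% held it. The AP-1 element TGACTCA, searched on both strands, was in 0 of the 9 windows and in 4.2% of all windows. The 3 windows printed are the target-gene windows among the 9 that held GGAATG. A match of letters is not a measured binding site, and whether the copies bear on the input differences was not tested.

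The total count was 45812488 in the shRBM39 IP, 22249581 in the shRBM39 input, 41387762 in the shControl IP and 20858382 in the shControl input. Levels are given as CPM, the count scaled to a common library size by TMM. All intervals are 95% intervals. They would be too narrow where reads are copies of 1 molecule, and the sample labels name no molecular identifiers. The intervals cover counting error only, because no group had a replicate. No p-value is therefore given between single libraries, and a gene was called higher or lower where its ratio reached 2-fold, a log2 ratio of 1, with an interval that left out equality. RBM39 itself stood at 370 CPM in the shRBM39 input and 403 CPM in the shControl input (log2 -0.12), so the knockdown named by the label was hardly visible in input RNA, and the directions below refer to libraries labelled shRBM39. The RBM39 transcript stood at 2220 CPM in the shRBM39 IP and 1035 CPM in the shControl IP. All 10 hepatocyte markers were measured, summing to 5540 CPM in the shRBM39 IP, 13204 CPM in the shRBM39 input, 9618 CPM in the shControl IP and 14136 CPM in the shControl input. Of 6 endothelial markers only PECAM1 passed the filter. Of 7 fibroblast and stellate markers 5 passed, with PDGFRA at 6.62 CPM in the shRBM39 IP, 14.7 CPM in the shRBM39 input, 12.3 CPM in the shControl IP and 13.5 CPM in the shControl input, and DCN was at 0 counts in all 4 libraries. Of 6 immune markers 3 passed (LYZ, CD68 and CD14), with LYZ at 159 to 396 CPM and the leukocyte marker PTPRC at 0 to 2 counts.

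**Figure D1:**
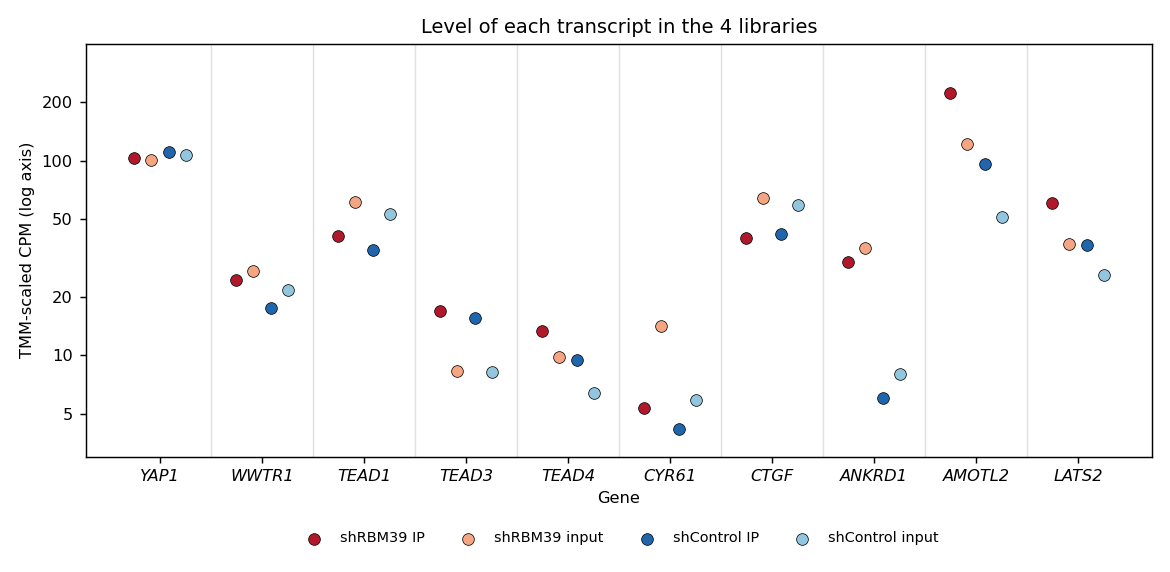
Level of each of the 10 transcripts in the 4 libraries, in TMM-scaled CPM on a log axis, 1 point per library. ANKRD1 shows the widest spread, with both shRBM39 libraries at 30.0 CPM or more and both shControl libraries under 8 CPM, whereas the 4 YAP1 points lie between 101 and 111 CPM.

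The first comparison set the input RNA of the 2 cultures side by side. Of the 10 genes, 3 were called higher in the shRBM39 input than in the shControl input and 0 lower, against 5.1% of all compared features called higher and 5.74% called lower. The 3 were ANKRD1, CYR61 and AMOTL2, all from the target side. The median log2 ratio of the 10 was 0.43, that of all features was -0.01, and 9 of the 10 values were above 0. That of TEAD3 lay below 0 with total counts (-0.05) and, at the size of rounding, with a filter of at least 50 counts in 2 libraries. The hairpin and the culture cannot be told apart with 1 library each, and in bulk RNA fewer cells expressing a gene and less RNA per cell cannot be told apart either.

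The coactivators differed little. YAP1 (chromosome 11, 102110447 to 102233424, hg38) had 2194 counts in the shRBM39 input and 2327 in the shControl input, which were 101 and 108 CPM (log2 ratio -0.10, -0.18 to -0.01). WWTR1 (chromosome 3, 149517235 to 149724788) had 591 counts in the shRBM39 input and 468 in the shControl input, or 27.1 and 21.7 CPM (log2 0.32, 0.15 to 0.50). YAP1 was thus 0.934 times and WWTR1 1.25 times its shControl level, both short of the 2-fold limit. The antisense transcript WWTR1-AS1 overlaps WWTR1 and had 22 counts in the shRBM39 input and 20 in the shControl input. The counting's strand setting is not given in the sources used here, so reads of overlapping antisense genes cannot be told apart.

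Among the TEAD factors none reached 2-fold in input. TEAD4 (chromosome 12, 2959397 to 3040676) had 213 counts in the shRBM39 input and 137 in the shControl input, a log2 ratio of 0.62 (0.31 to 0.94). TEAD1 (chromosome 11, 12674421 to 12944737) stood at 61.5 CPM in the shRBM39 input and 53.1 CPM in the shControl input (log2 0.21, 0.10 to 0.33). TEAD3 (chromosome 6, 35473597 to 35497079) had 181 counts in the shRBM39 input and 176 in the shControl input (log2 0.03, -0.28 to 0.33), a difference not detectable at this depth. TEAD4 had the highest ratio of the 3, and 14.9% of all features were at or above it. TEAD2, the family member outside the chosen genes, was lower in the shRBM39 input. It stood at 26.9 CPM there and 36.0 CPM in the shControl input (log2 -0.42, -0.58 to -0.27), also short of 2-fold.

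The target genes spread over a wide range. ANKRD1 (chromosome 10, 90912096 to 90921087) had 773 counts in the shRBM39 input and 172 in the shControl input, which were 35.5 and 7.97 CPM. It was 4.44 times higher in the shRBM39 input (log2 2.15, 1.91 to 2.40), and 0.875% of all features had a ratio as high. The same held in the IPs, where ANKRD1 stood at 30.0 CPM in shRBM39 cells and 6.02 CPM in shControl cells. Both libraries of the shRBM39 culture were thus above both of the other. The IP and input of a hairpin come from the same culture, so the IPs are not a replicate of the input difference.

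CYR61 (chromosome 1, 85580761 to 85583950) had 308 counts in the shRBM39 input and 126 in the shControl input, a ratio of 2.42 (log2 1.27, 0.97 to 1.59). AMOTL2 (chromosome 3, 134355345 to 134375417) had 2673 counts in the shRBM39 input and 1105 in the shControl input, a ratio of 2.40 (log2 1.26, 1.16 to 1.36). Near-equal ratios thus came from a gene of low counts and one of high counts, and 3.52% and 3.6% of all features were at or above them. LATS2 (chromosome 13, 20973036 to 21061586) stood at 37.3 CPM in the shRBM39 input and 25.8 CPM in the shControl input (log2 0.53, 0.38 to 0.69), short of the call. CTGF (chromosome 6, 131948176 to 131951372), the closest relative of CYR61 here, had 1400 counts in the shRBM39 input and 1273 in the shControl input, a ratio of 1.09 (log2 0.12, 0.01 to 0.23). CTGF lies wholly within an antisense gene, CCN2-AS1, in the RefSeq annotation. The summed level of the 7 fibroblast and stellate markers was 17.9 CPM in the shRBM39 input and 16.7 CPM in the shControl input. Most of it was PDGFRA, at 14.7 CPM in the shRBM39 input and 13.5 CPM in the shControl input, so the sum says little about the other markers.

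Other genes of the pathway were taken from 3 lists, which were chosen with earlier results of these data known. Of 17 further YAP target genes, 15 passed the filter, and 6 of these were called higher and 0 lower in the shRBM39 input, against 5.1% and 5.74% of all features, with a median log2 ratio of 0.39 beside -0.01 for all features. CCDC80, a secreted matrix protein, had 385 counts in the shRBM39 input and 43 in the shControl input (log2 3.13, 2.69 to 3.64). MYOF, the membrane repair protein myoferlin, had 156 counts in the shRBM39 input and 34 in the shControl input (log2 2.17). The kinase NUAK2 had 82 counts in the shRBM39 input and 22 in the shControl input (log2 1.86). IGFBP3, which binds insulin-like growth factors, had 510 counts in the shRBM39 input and 164 in the shControl input (log2 1.62). The list was mixed, with 11 values above 0 and 4 below. The 4 were RBMS3 (log2 -0.99, -2.05 to -0.04), NT5E (-0.57, -0.72 to -0.43), GADD45A (-0.51, -0.71 to -0.31) and F3 (-0.30, -0.54 to -0.06). RBMS3 lay just short of a lower call, on 14 counts in the shRBM39 input and 28 in the shControl input. AXL and FOXF2 did not pass the filter, with at most 8 counts in any library.

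Of the 18 Hippo kinases and upstream regulators, 2 were called higher in the shRBM39 input and 0 lower, against the 5.1% and 5.74% of all features, and their median was 0.22 beside -0.01. They were WWC1 (KIBRA), a scaffold that activates LATS kinases, with 2187 counts in the shRBM39 input and 953 in the shControl input (log2 1.18), and AJUBA, a LIM protein that inhibits LATS, with 2847 counts in the shRBM39 input and 1349 in the shControl input (log2 1.06). Of 7 other YAP and TEAD partners, 5 passed the filter and 1 was called, the TEAD cofactor VGLL3, which had 78 counts in the shRBM39 input and 8 in the shControl input (log2 3.19, 2.22 to 4.53). VGLL1 and VGLL2 had 0 counts in all 4 libraries.

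**Figure D2:**
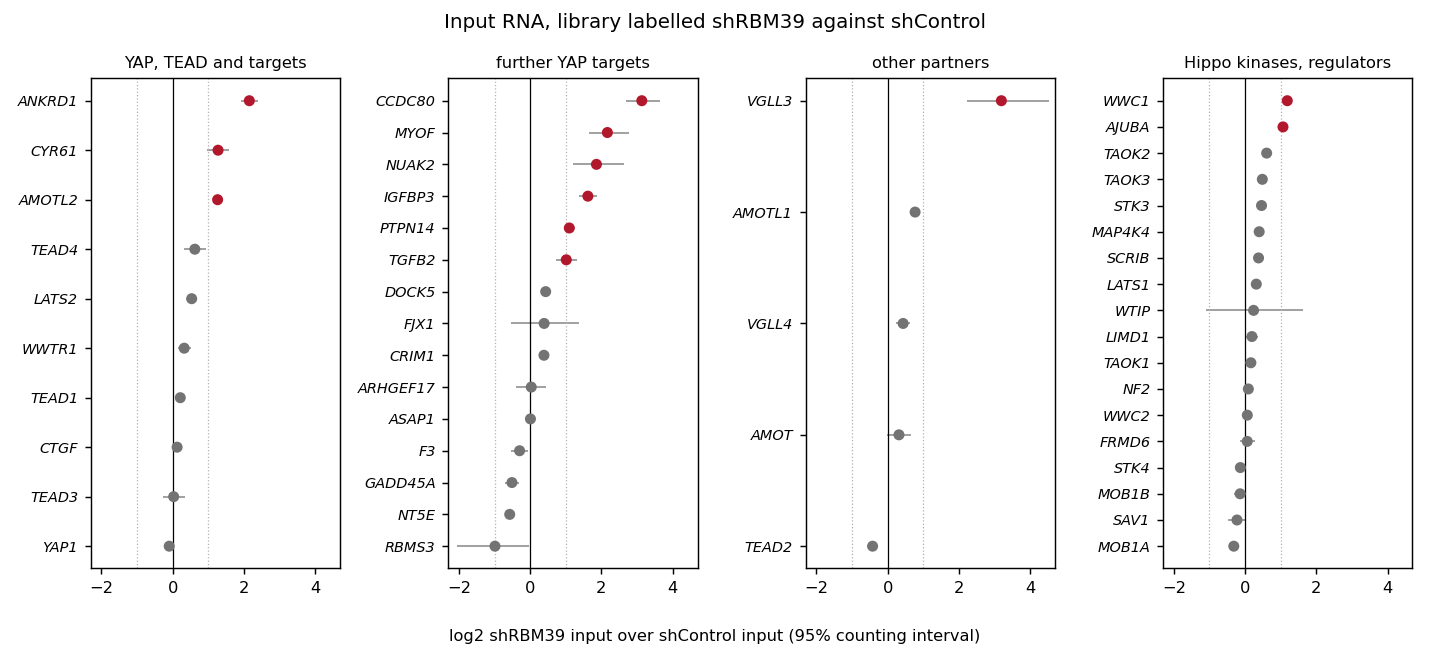
Log2 ratio of the shRBM39 input over the shControl input for the 10 genes and for 3 pathway lists, with 95% counting intervals. Red points were called higher, grey points were not called, and dotted lines mark 2-fold. ANKRD1, CYR61 and AMOTL2 are the called genes in the left panel, and no gene in any panel was called lower.

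The next comparison asked whether the transcripts were recovered with the RBM39 antibody, read as the level in the IP over that in the input of the same culture. Recovery was modest throughout. In shRBM39 cells TEAD3 was called higher and CYR61 lower, against 5.3% of all features called higher and 9.0% called lower. In shControl cells 0 of the 10 were called, against 7.71% of features called higher and 11.3% lower. The median log2 ratio of the 10 was -0.06 in shRBM39 cells and -0.13 in shControl cells, beside medians over all features of 0.02 and 0.00.

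YAP1 mRNA stood within counting error of its input level in both IPs with TMM scaling. It had 4283 counts in the shRBM39 IP, or 103 CPM, against 101 CPM in the input of those cells (log2 0.04, -0.04 to 0.11). In shControl cells it had 5033 counts in the IP, or 111 CPM, against 108 CPM in the input (log2 0.05, -0.03 to 0.12). The value in shRBM39 cells was -0.08 with libraries scaled to total counts and 0.16 with no filter on low counts, and that in shControl cells 0.12 and 0.14. The difference of the ratios, shRBM39 minus shControl, was -0.01 (-0.11 to 0.09) with TMM and -0.20 with total counts, which is outside that interval. WWTR1 was below its input in both cultures, at 24.2 CPM in the IP against 27.1 CPM in the input of shRBM39 cells (log2 -0.16) and at 17.5 CPM in the IP against 21.7 CPM in the shControl input (log2 -0.31).

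The TEAD transcripts were recovered unequally. TEAD3 had 702 counts in the IP of each culture, which after scaling was 16.95 CPM in the shRBM39 IP against 8.31 CPM in its input and 15.5 CPM in the shControl IP against 8.16 CPM in its input. Its log2 ratios were 1.02 (0.79 to 1.27) in shRBM39 cells and 0.93 (0.69 to 1.18) in shControl cells, so the called and the uncalled value lay on either side of the limit with overlapping intervals. With libraries scaled to total counts the call moved to the other culture. TEAD4 had 549 counts in the shRBM39 IP and 426 in the shControl IP, with log2 ratios over input of 0.44 (0.21 to 0.67) in shRBM39 cells and 0.57 (0.29 to 0.86) in shControl cells. TEAD1 went the other way, at 41.2 CPM in the IP against 61.5 CPM in the input of shRBM39 cells (log2 -0.58, -0.68 to -0.48) and at 34.9 CPM in the IP against 53.1 CPM in the shControl input (log2 -0.61, -0.72 to -0.50).

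The same TEAD counts were also read as shares within each library, which needs no scaling between libraries but is not separate evidence. The shares of a library add up to a whole, so a lower share of TEAD1 raises the others. TEAD1 took 38.4% (36.9 to 39.8) of the counts of TEAD1 to TEAD4 in the shRBM39 IP, against 57.8% (55.7 to 59.8) in the input of those cells (exact Clopper-Pearson intervals). In shControl cells its share was 31.5% (30.2 to 32.8) in the IP, against 51.3% (49.2 to 53.3) in the input. TEAD3 took 15.8% in the shRBM39 IP against 7.81% in its input, and 14.0% in the shControl IP against 7.87% in its input. TEAD2, the fourth family member, was 33.5% in the shRBM39 IP against 25.2% in its input, and 46.0% in the shControl IP against 34.8% in its input. These shares are of counts and not of molecules, since transcript lengths differ. Counts per gene do not show whether the mix of transcript forms, and so their length, was the same in every library.

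Of the secreted targets, CYR61 was below its input in both cultures. It had 220 counts in the shRBM39 IP, or 5.31 CPM, against 14.1 CPM in the input, which was 2.66 times lower (log2 -1.41, -1.67 to -1.16). In shControl cells it had 188 counts in the IP, or 4.16 CPM, against 5.84 CPM in the input (log2 -0.49, -0.82 to -0.15). The difference of the 2 ratios was -0.92 (-1.33 to -0.51), short of the 2-fold limit. Its IP level differed by less than its input level, with the shRBM39 input standing apart from the other 3 libraries. CTGF was also below input, at 39.9 CPM in the IP against 64.3 CPM in the input of shRBM39 cells (log2 -0.69, -0.79 to -0.59) and at 41.8 CPM in the IP against 59.0 CPM in the shControl input (log2 -0.50, -0.60 to -0.39). The hepatocyte markers, most of them secreted proteins, had median log2 ratios of -1.10 in shRBM39 cells, with 5 of 10 called lower, and -0.29 in shControl cells, with 1 called lower. Their part in the CYR61 value was not tested.

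Set against each other within a library, CYR61 made up 11.8% (10.3 to 13.3) of the counts of CYR61 and CTGF in the shRBM39 IP, against 18.0% (16.2 to 19.9) in the shRBM39 input. In shControl cells the share was 9.04% (7.84 to 10.4) in the IP, against 9.01% (7.56 to 10.6) in the input. The pair was thus recovered in proportion in shControl cells, within counting error, and unequally in shRBM39 cells. For the coactivators, YAP1 made up 81.0% (79.9 to 82.1) of the counts of YAP1 and WWTR1 in the shRBM39 IP against 78.8% (77.2 to 80.3) in its input, and 86.4% (85.5 to 87.3) in the shControl IP against 83.3% (81.8 to 84.6) in its input.

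**Figure D3:**
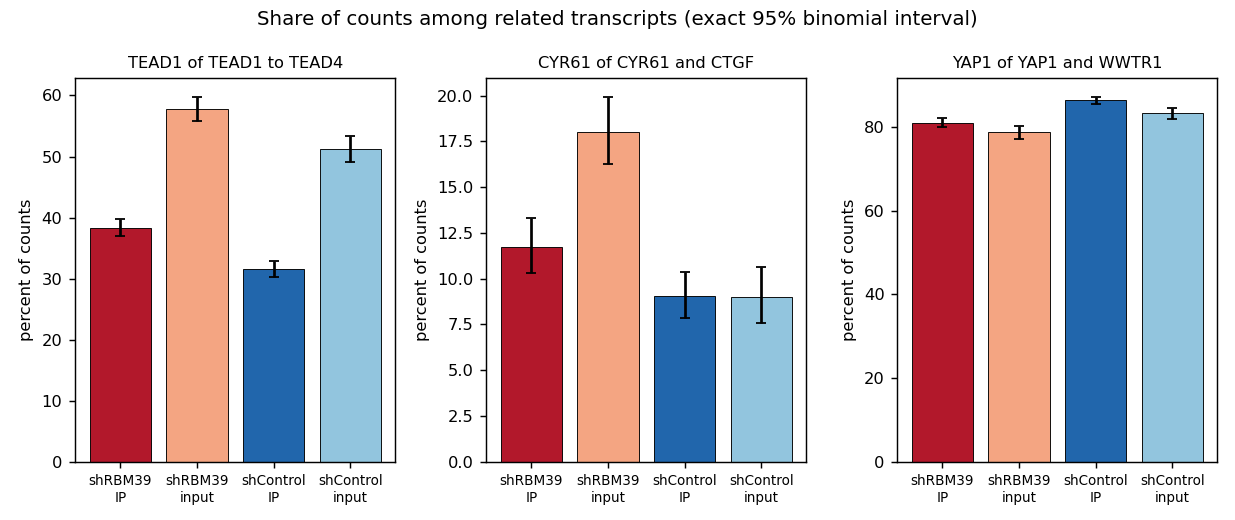
Percent of counts that 1 transcript takes among its relatives in each library, with exact 95% binomial intervals. TEAD1 takes a smaller share in both IPs than in both inputs, at 38.4% and 31.5% against 57.8% and 51.3%, and the CYR61 share is highest in the shRBM39 input at 18.0%.

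ANKRD1, which of the 10 genes differed most between inputs, was a little below input in both cultures. It had 1243 counts in the shRBM39 IP and 272 in the shControl IP, with log2 ratios over input of -0.24 (-0.37 to -0.11) in shRBM39 cells and -0.41 (-0.69 to -0.12) in shControl cells. AMOTL2 was above input in both, with 9261 counts in the shRBM39 IP, or 224 CPM against 123 CPM in its input (log2 0.86, 0.80 to 0.93), and 4354 counts in the shControl IP, or 96.3 CPM against 51.2 CPM in its input (log2 0.91, 0.82 to 1.01). LATS2 had log2 ratios of 0.71 (0.60 to 0.83) in shRBM39 cells and 0.52 (0.38 to 0.66) in shControl cells. AMOTL2 and LATS2 were thus above input in both cultures, as were TEAD3 and TEAD4. CYR61 and CTGF were below it in both, as were TEAD1, WWTR1 and ANKRD1. These sizes were short of 2-fold except for CYR61 and TEAD3 in shRBM39 cells. Whether recovery goes with the kind of gene was not tested.

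**Figure D4:**
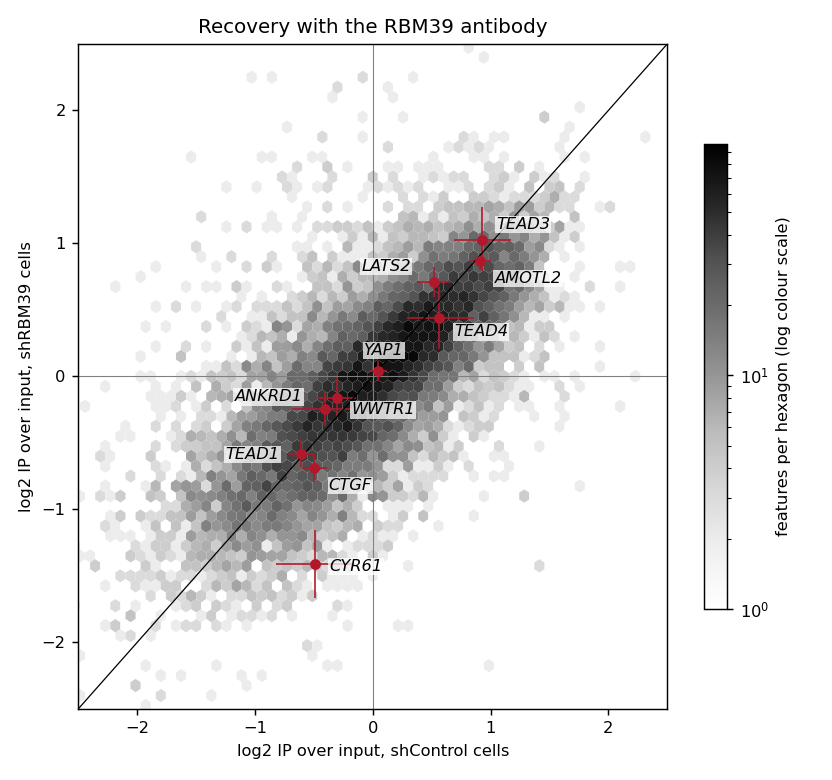
Log2 IP over input in shRBM39 cells (vertical axis) against shControl cells (horizontal axis). Red points are the 10 genes with 95% counting intervals, grey hexagons count the compared features that lie within the plotted range on a log colour scale, and the diagonal marks equal recovery. CYR61, at -1.41 and -0.49, lies farthest from the diagonal, and YAP1 lies near the origin.

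The difference of the ratios between the cultures was called for 0 of the 10 genes, against 4.39% of all features called higher and 2.74% called lower. Apart from CYR61 the differences lay between -0.19 for CTGF and 0.19 for LATS2. Those of CTGF (-0.34 to -0.05) and LATS2 (0.01 to 0.37) left out 0 by the counting interval, and those of the other 7 genes did not. These intervals would be too narrow if both mates of a read pair were counted. With total counts the CTGF difference was -0.39 and the LATS2 difference was -0.0008. With total counts in place of TMM, 5 of the 10 differences changed sign, since that scaling lowered every difference by 0.19 and the median of all features from 0.00 to -0.20. The share of higher features among those called was 61.6% with TMM and 39.1% with total counts for this contrast, 37.1% and 24.9% for recovery in shRBM39 cells, and 47.1% and 37.1% for the inputs.

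Of the 15 further targets that passed the filter, 1 gene was called higher in the shRBM39 IP, ARHGEF17 (log2 1.59, 1.29 to 1.92), and 1 lower, NT5E, the ectoenzyme CD73 (-1.70, -1.88 to -1.52), where all features had 5.3% and 9.0%. In shControl cells ARHGEF17 (1.18) and FJX1 (1.09) were called higher and 0 of the 15 lower, where all features had 7.71% and 11.3%. These counts are too small to set the list apart from those shares. Of the 18 kinases and upstream regulators, SCRIB, a polarity scaffold, was called higher in both, at 1.35 (1.27 to 1.44) in shRBM39 cells and 1.66 (1.57 to 1.76) in shControl cells, as was WTIP on 10 to 64 counts per library. Of the 5 partners that passed the filter, the angiomotin AMOT was called higher in shRBM39 cells alone (1.07, 0.83 to 1.33), with a value of -0.15 (-0.46 to 0.17) in shControl cells and a called difference of 1.22 (0.83 to 1.61). RBMS3, an RNA-binding protein gene, was the further target with a called difference (1.31, 0.22 to 2.41), on 14 to 46 counts per library, where all features had 4.39% called higher and 2.74% lower.

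Across both cultures together, IP and input were compared with edgeR's quasi-likelihood test in a model of culture and fraction, which has 1 residual degree of freedom. The culture term takes up differences in level between the cultures, and a real difference in IP over input between them counts as error. Of the 10 genes, 7 passed a Benjamini-Hochberg adjusted p of 0.05, against 36.9% of all features. TEAD3 (log2 0.98, edgeR adjusted p = 0.00023), AMOTL2 (0.89, adjusted p = 0.00021), LATS2 (0.61, adjusted p = 0.0028) and TEAD4 (0.50, adjusted p = 0.038) were higher in the IP, each in 2 of 2 cultures. CYR61 (-0.98, edgeR adjusted p = 0.0020), TEAD1 (-0.59, adjusted p = 0.0031) and CTGF (-0.59, adjusted p = 0.0034) were lower in the IP, each in 2 of 2 cultures. ANKRD1 (-0.32, edgeR adjusted p = 0.13), WWTR1 (-0.23, adjusted p = 0.24) and YAP1 (0.04, adjusted p = 0.86) did not pass. Without the culture term 0 of the 10 genes and 0 of all features passed in edgeR, where 3 of the 10 and 4143 of 19210 features had an unadjusted p under 0.05.

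The features with the most similar values to YAP1, CYR61 and CTGF were sought over 3 log2 ratios, those between inputs and of IP over input in each culture, among 11946 features with a current RefSeq symbol and at least 200 summed counts. For YAP1 they were ZNF251, GAREM1 and FUNDC2, at Euclidean distances of 0.018 to 0.026. For CTGF they were CCDC39, TOR1AIP1 and RANBP6, at 0.063 to 0.073. For CYR61 they were CTSS, HP and VTN, at 0.14 to 0.31.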

How the data were processed

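The values deposited by the authors are whole-number read counts per gene, with no normalization. The submitters' processing notes name StringTie 1.3.4d, HISAT2 2.0.4, cutadapt 1.9 and hg38 without their roles. Counting program, annotation and strand setting were not given in the sources used here. Of the counts from 3 to 6, 71.4% to 75.6% were even, as when mates are counted singly, so intervals with counts divided by 2 were tried. Each of the 4 columns was matched to its sample through its name. TMM factors from edgeR 4.0.16 (R 4.3.3) scaled the libraries, and 0.5 was added to each count before log2 ratios. Intervals are exact conditional (Clopper-Pearson), and for differences come from the counting standard error. DESeq2 1.42.0 was an alternative to edgeR, and the edgeR and pairwise steps were run on simulated data. The simulated counts had counting noise only for the pairwise step. For edgeR they had a fixed added variation and the same IP effect in both cultures. They therefore do not test how the steps behave with variation between real cultures. Shares among paralogs use exact binomial intervals (scipy 1.17.1). Genes, lists and tests were chosen with earlier results of these data known, and the paralog shares, with TEAD2, after the values were seen. Named genes were the 10, RBM39 and up to 4 called genes per pathway list and comparison by size. The 3 features nearest to YAP1, CYR61 and CTGF were also named. AXL, FOXF2, VGLL1, VGLL2, WWTR1-AS1, CCN2-AS1 and the cell type markers were named for counts or overlaps. RBMS3, NT5E, GADD45A and F3 were named for input values below 0, and TEAD2 as the fourth family member. Coordinates are RefSeq's on GRCh38, which hg38 names; CYR61 and CTGF matched through older symbols.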

Additional observations from a re-analysis of the deposited data

How the results depend on the processing

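The 3 genes called between inputs (ANKRD1, CYR61 and AMOTL2) were the 3 called under the other scalings, filters, added count and halved counts, and a 1.5-fold limit added TEAD4 as the fourth. Of the 10 genes, the number called for IP over input in shRBM39 cells was 2, and it was 1 (CYR61) with total counts, with TMM computed without mitochondrial, 7SK and 7SL features and with at least 50 counts in at least 2 libraries, and 5 with a 1.5-fold limit. In shControl cells it was 0, and it was 1 (TEAD3) with total counts, 2 (TEAD3 and AMOTL2) with no filter and 3 with a 1.5-fold limit. For the difference it was 0, and it was 1 (CYR61) with total counts and with a 1.5-fold limit. Of all 19210 features, the 1.5-fold limit called 4734 between inputs and 6329 for IP over input in shRBM39 cells. It called 7585 in shControl cells and 2840 for the difference, so many features besides the 10 genes were called at that limit. The TEAD3 values of 1.02 and 0.93 lie at the 2-fold limit, which is where these calls move. In edgeR 7 of the 10 passed, 0 with no culture term, and 6 or 7 under the other alternatives. Adjusted p over all these alternatives, main setting included, ran from 9.0e-08 to 0.12 for TEAD3, from 0.00016 to 0.24 for CYR61 and from 0.0081 to 0.42 for TEAD4.

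Over all features, edgeR called 7079 and DESeq2 4695. With at least 50 counts in at least 2 libraries, 1060 features were called between inputs (2082 in the main setting), 1619 for IP over input in shRBM39 cells (2746), 2254 in shControl cells (3651) and 564 for the difference (1369), from fewer features tested. With counts divided by 2, 744 features were called for the difference. No called value of the 10 genes changed sign under any alternative. Leaving out a library leaves the edgeR model no residual degree of freedom. The culture term of that model pairs the IP and input of each culture, and no other pairing was possible with 1 library per group. CYR61, on 126 to 308 counts per library, is the gene for which depth limits the ratios most among those called.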
